A study of Mus musculus with 18 samples.

Results

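Peroxisomal enzymes and peroxins were followed in kidney cortex of mice given a tubule toxin. The set holds 38 genes, chosen by name from the 24062 genes of the deposited expression matrix, and all 38 names were found. By the role of their products these are 21 enzymes of the peroxisomal matrix, 5 proteins of the peroxisomal membrane and 12 Pex genes, whose products (peroxins) build the organelle. Of the 38 genes, 37 had at least 1 RPKM (reads scaled by transcript length and by the library's mapped reads) in at least 3 of the 18 libraries and were tested. The exception was Abcd2, a membrane transporter of very long-chain acyl-CoA.

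Peroxisomes shorten very long-chain and branched fatty acids by beta- and alpha-oxidation, oxidize D-amino acids and hydroxy acids, and break down the hydrogen peroxide these reactions release with catalase. Their enzymes are made in the cytosol and imported whole by receptors (Pex5, Pex7) that dock at the membrane and are pulled back out for the next round, while a separate set of peroxins inserts membrane proteins and divides the organelle. In the kidney, peroxisomes are most abundant in the proximal tubule, and many genes of their enzymes are targets of the nuclear receptor PPAR-alpha.

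The mice were of the C57Bl/6 strain. Klf15fl/fl mice (called fl/fl) have loxP-flanked copies of Klf15, which encodes a transcription factor of the Krüppel-like family. In Klf15PTKO mice (called PTKO) the gene is named as knocked out in the proximal tubule. Each genotype received the vehicle DMSO, aristolochic acid I for 2 weeks (AA 2wk), or aristolochic acid I for 2 weeks and then 2 weeks of remodeling (AA 4wk), with 3 libraries in each of the 6 groups. Aristolochic acid I is a plant toxin taken up by proximal tubule cells. The sources used here give neither the Cre line, the exons deleted, nor the sex and age of the mice. No group is labelled as carrying Cre with intact Klf15, and an effect of the deletion and one of Cre cannot be told apart. A single DMSO group, whose week the labels leave unsaid, serves both toxin courses of a genotype. It is not stated that the 3 libraries of a group came from separate mice, and every p-value therefore measures the spread between libraries, which may be technical.

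Klf15 itself stood at 53, 61.3 and 65.5 RPKM in the fl/fl DMSO libraries and at 28.5, 31.9 and 32.6 in the PTKO DMSO libraries, so every PTKO library was lower and none was near 0. The log2 difference was -0.93 ± 0.26 (SE), which limma, a linear model fitted across all tested genes, did not call (adjusted p = 0.595). After the toxin Klf15 stood at 22.9, 18.6 and 41.3 RPKM in fl/fl AA 2wk, 11.6, 14.6 and 18.8 in fl/fl AA 4wk, 12.5, 17.5 and 25.6 in PTKO AA 2wk and 9.11, 8.81 and 9.53 in PTKO AA 4wk. Its log2 fold change at AA 4wk was -1.95 ± 0.26 in fl/fl and -1.65 ± 0.26 in PTKO (limma, adjusted p = 1.76e-05 and 5.2e-05). The libraries held 10681972 to 21155873 reads, as recovered from the RPKM values. Of each AA 2wk group, replicate 3 had the smallest toxin effect on the enzymes. Its median difference from the fl/fl DMSO mean over the 21 enzymes was -0.65 in fl/fl and -0.74 in PTKO. The lowest library of each group stood at -1.52 and -1.62. The enzyme median minus the Pex median was -0.81, -1.16 and -0.51 in fl/fl replicates 1 to 3 and -1.01, -1.29 and -0.50 in PTKO. In fl/fl, replicate 3 was thus 1 end of an even spread. Values without both AA 2wk libraries numbered 3 are given where they change a call. These libraries were singled out by their smaller effect on the members themselves. Larger AA 2wk effects without them follow from that choice and are not independent support. All 18 proximal tubule markers tested were above 0 in every library, with a summed level of 10720 to 12300 RPKM in the fl/fl DMSO libraries.

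In cortex of mice given the vehicle, the matrix enzymes were far more abundant than the peroxins. In fl/fl DMSO the median of the group means was 127 RPKM over the 21 enzymes, from 17.9 for the thioesterase Acot8 to 765 for catalase (Cat), and 23.5 RPKM over the 12 Pex genes, from 8.14 for Pex26 to 48.2 for Pex19. The most abundant member was Slc27a2, a very long-chain fatty acid transporter and acyl-CoA synthetase, at 2050 ± 102 RPKM (mean ± SD, n = 3). RPKM is scaled by length, so these levels can be compared between genes. PTKO DMSO gave medians of 125 and 22.9 RPKM for the enzymes and the Pex genes. The lowest value of any tested member in any library was 4.41 RPKM (Acot4 in a PTKO AA 4wk library), so no tested member passed the filter through 1 group alone.

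To show what lies upstream of the enzymes, the 250 bases before each RefSeq start were searched in RefSeq promoter sequences (GRCm38.p6), which hold 32 of the 38 members in 40 entries, as a gene can have several starts. The nuclear receptor half-site AGGTCA, read on both strands, was present in 12.5% of the members' entries and in 14.0% of all 32851 promoters. The genes with a match were Acot4, Cat, Dao, Scp2 and Slc27a2, that is 4 of the 19 matrix enzymes, 1 of the 3 membrane proteins and 0 of the 10 Pex genes in the table. The full DR1 element, a tandem repeat of that half-site with 1 base between, was in 0.0335% of all promoters and in none of the members'. The 3 matches that lie outside annotated exons are printed 5′ to 3′ on the gene's strand with the match in capitals (TGACCT is AGGTCA on the other strand), because Cat, Scp2 and Acot4 were called lower in all 4 toxin comparisons.
Cat, chr2:103485312-103485397, minus strand, match 204 bases before the start: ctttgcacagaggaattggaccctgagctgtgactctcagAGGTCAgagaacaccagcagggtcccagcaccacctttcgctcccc
Scp2, chr4:108118611-108118696, minus strand, match 109 bases before an internal start of the annotated Scp2 gene (108043839 to 108144998), outside its exons: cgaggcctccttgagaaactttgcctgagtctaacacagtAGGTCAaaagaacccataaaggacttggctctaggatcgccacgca
Acot4, chr12:84038326-84038378, plus strand, match 13 bases before the start: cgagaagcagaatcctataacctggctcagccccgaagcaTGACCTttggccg
The match is a description of the letters in this window and says nothing of binding. The CACCC box CCACCC, a kind of site that factors of the KLF family bind, was in 30.0% of the members' entries and 28.1% of all promoters. The GC box GGGCGG was in 52.5% against 32.7%, and CCAAT in 45.0% against 33.8%.

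**Figure D1:**
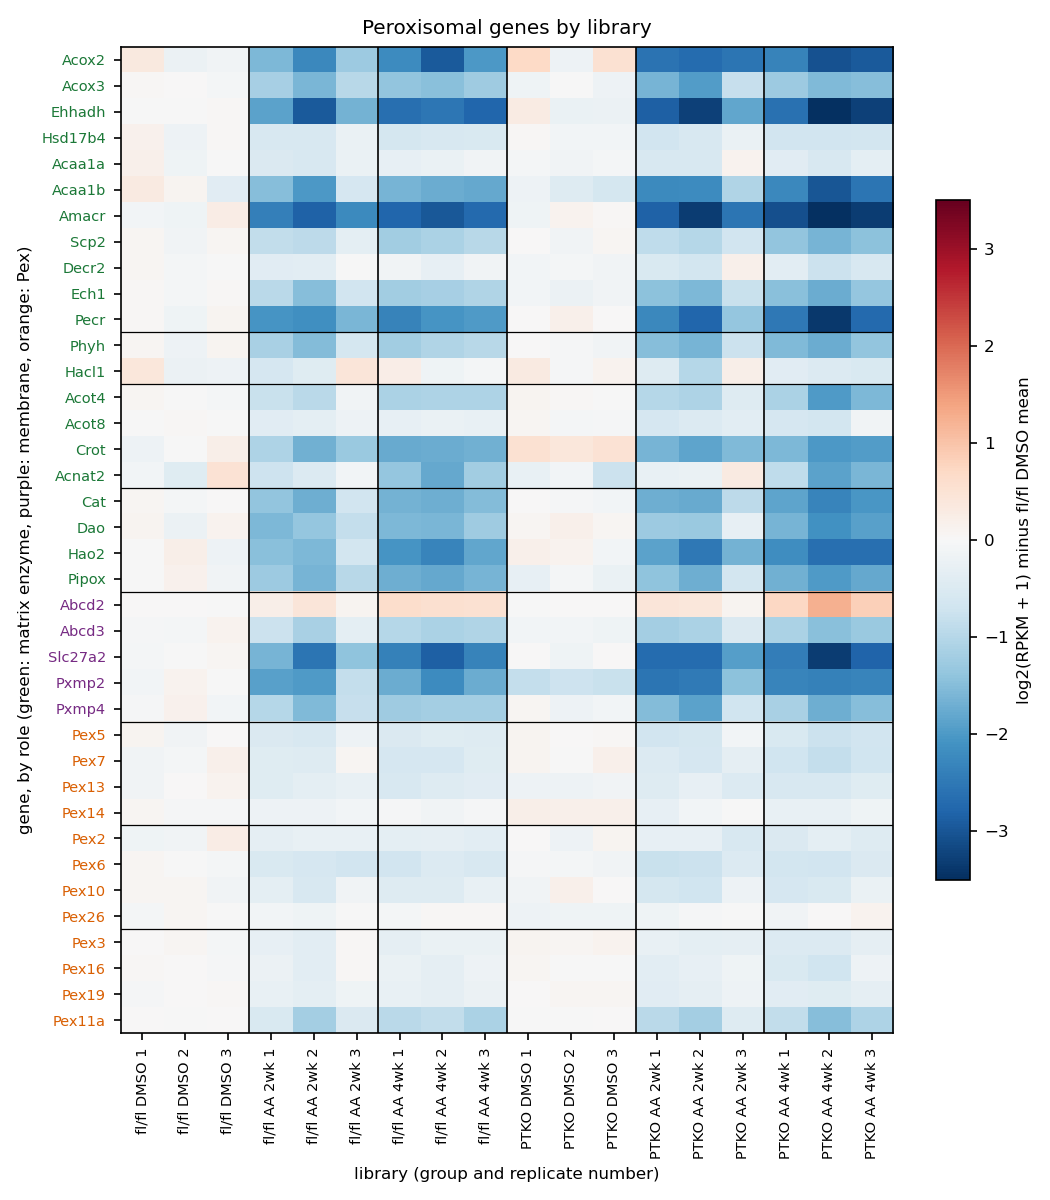
Each row is 1 of the 38 genes, grouped by role (label colours: green, matrix enzyme; purple, membrane; orange, Pex), and each column 1 of the 18 libraries; colour gives log2(RPKM + 1) minus the mean of the fl/fl DMSO libraries. The AA libraries are dark blue for most enzymes and membrane proteins and pale for most Pex genes, and the AA 2wk libraries numbered 3 are paler than the others of their groups.

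After aristolochic acid, the members were lower in both genotypes and at both times, and no member was called higher, although 50.4% (fl/fl AA 2wk), 51.9% (fl/fl AA 4wk), 45.9% (PTKO AA 2wk) and 55% (PTKO AA 4wk) of all tested genes were. In fl/fl AA 2wk, 28 of the 37 tested members were called lower against DMSO (limma, adjusted p under 0.05), against 12.2% of all tested genes called lower. In fl/fl AA 4wk 30 were called lower (background 14.3%), in PTKO AA 2wk 32 (background 14.3%) and in PTKO AA 4wk 34 (background 17.3%). The median log2 fold change of the members was -0.71, -1.08, -0.84 and -1.17 in that order, while the median of all tested genes was 0.33, 0.35, 0.29 and 0.40. Relative to that shift the members' median was -1.04, -1.43, -1.13 and -1.58. Fold changes are on the log2(RPKM + 1) scale, which understates the change of low genes. Every AA library lay below every DMSO library for 30, 33, 32 and 36 of the 37 members, against 12.3%, 16.6%, 16% and 19.9% of all tested genes. Of the 28, 30, 32 and 34 calls, 23, 27, 29 and 33 were also made under every other setting tried. Without both AA 2wk libraries numbered 3, 35 members were called lower in fl/fl AA 2wk and 34 in PTKO AA 2wk, against 14.6% and 16% of all genes. Each of these libraries had the smallest enzyme effect of its group, so the higher counts are not independent support.

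Among the members, the matrix enzymes had larger fold changes than the Pex genes. In fl/fl the median log2 fold change was -1.23 over the 21 enzymes and -0.27 over the 12 Pex genes at AA 2wk, and -1.46 and -0.36 at AA 4wk. In PTKO it was -1.12 and -0.38 at AA 2wk and -1.60 and -0.48 at AA 4wk. As ratios of mean RPKM, the median enzyme stood at 43.8% and 35.7% of its DMSO level in fl/fl and at 47.1% and 32.2% in PTKO, and the median Pex gene at 82.0% and 75.8% in fl/fl and 75.8% and 70.2% in PTKO. The enzyme median minus the Pex median was -0.96, -1.10, -0.74 and -1.12 over these 4 comparisons. Under quantile normalization the differences for fl/fl AA 2wk, fl/fl AA 4wk and PTKO AA 4wk shrank to -0.45, -0.70 and -0.53. Taken library by library, the enzyme median minus the Pex median lay between -0.12 and 0.06 in the 6 DMSO libraries and between -1.43 and -0.50 in the 12 AA libraries, with no overlap. The difference between the classes is a description, since the members were chosen with results of these data known, and it was not tested. Outside the set it was smaller at AA 4wk, taking each library's median difference from fl/fl DMSO and averaging by group. There 30 other enzymes and membrane proteins stood at -0.64 (fl/fl) and -0.81 (PTKO), and 7 other peroxins and division factors at -0.22 and -0.24. The members gave -1.40 and -1.71 for the matrix enzymes and -0.36 and -0.48 for the Pex genes.

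The count of called Pex genes depended on how libraries were scaled. On the deposited RPKM, 6, 9, 11 and 11 of the 12 Pex genes were called lower in fl/fl AA 2wk, fl/fl AA 4wk, PTKO AA 2wk and PTKO AA 4wk, beside 18, 17, 17 and 19 of the 21 enzymes and 4 of the 4 tested membrane proteins each time. The shares of all tested genes called lower on that scale were 12.2%, 14.3%, 14.3% and 17.3%. With median-of-ratios scaling, which brings the median of all genes to between 0.002 and 0.025, the Pex counts were 12, 12, 11 and 12 and the enzyme counts 20, 20, 20 and 21, against 27.5%, 29.9%, 27.1% and 33% of all genes called lower under that scaling. Relative to the median of all genes on the deposited scale, the Pex median was -0.60, -0.71, -0.67 and -0.88 and the enzyme median -1.56, -1.81, -1.41 and -1.997.

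Level and change went together across the members. The log2 DMSO level and the log2 fold change had a Pearson r of -0.72 and a Spearman rho of -0.76 in fl/fl AA 2wk, and -0.71 and -0.74 in fl/fl AA 4wk, over 37 genes that share the same libraries. Within the 21 enzymes r was -0.60 and -0.52 (rho -0.61 and -0.50). Within the 12 Pex genes r was -0.26 and -0.30 (rho -0.11 and -0.25). For PTKO AA 4wk the change was set against the fl/fl DMSO level, not that of PTKO DMSO. There r was -0.71 over the members, -0.49 within the enzymes and -0.60 within the Pex genes. These are correlations across genes, which are not independent replicates. In the fl/fl comparisons the same DMSO libraries enter both the level and the change.

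**Figure D2:**
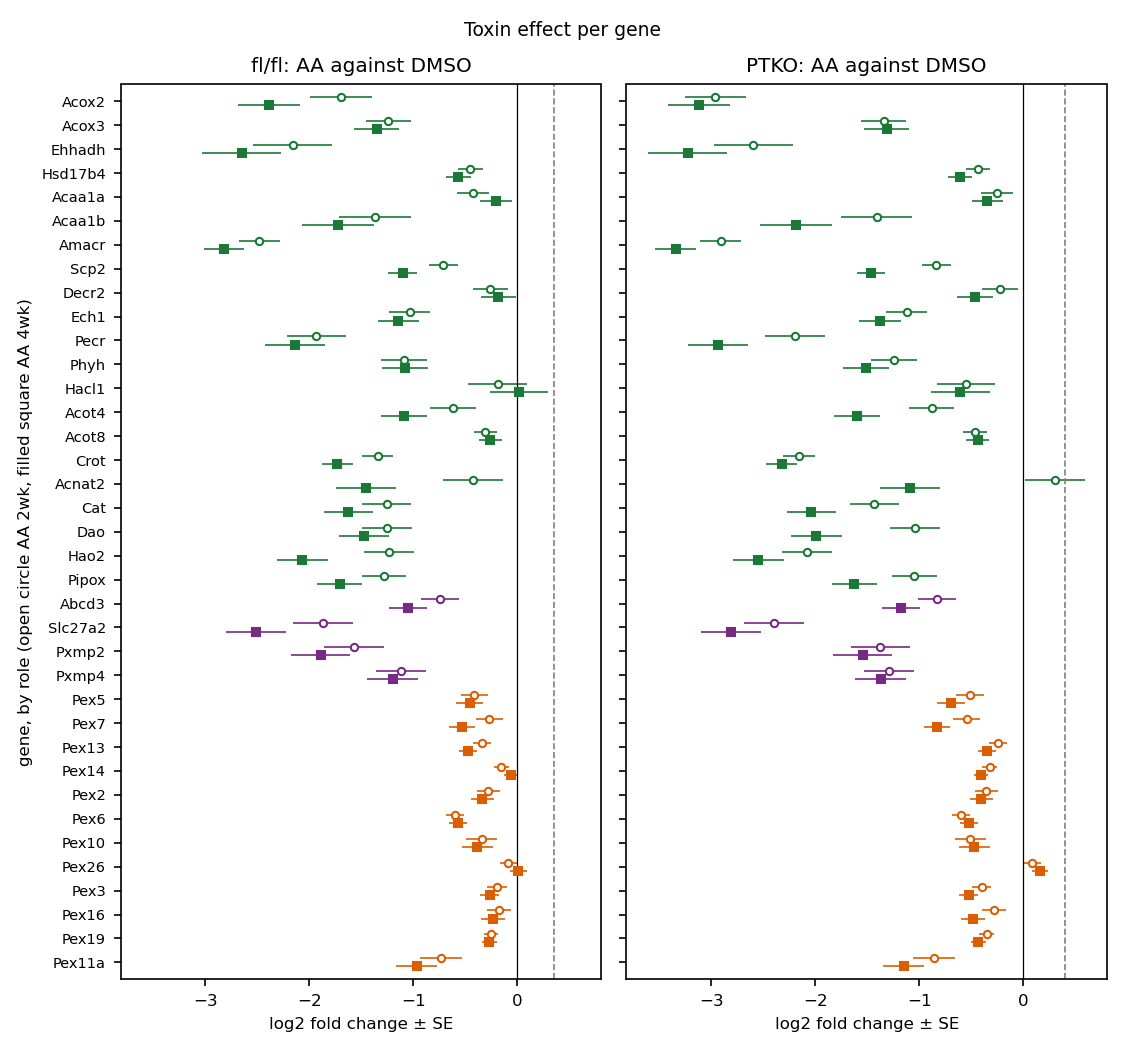
Log2 fold change ± SE of each tested gene after aristolochic acid, against DMSO of the same genotype (open circles, AA 2wk; filled squares, AA 4wk; green, matrix enzymes; purple, membrane; orange, Pex genes). The dashed line is the median of all tested genes at AA 4wk, 0.35 in fl/fl and 0.40 in PTKO; the enzymes spread down to -3.34 (Amacr), while no Pex gene lies below -1.15 (Pex11a).

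Among the 11 enzymes of beta-oxidation, 10 were called lower in fl/fl AA 2wk, 9 in fl/fl AA 4wk, 9 in PTKO AA 2wk and 10 in PTKO AA 4wk. The shares of all tested genes called lower, 12.2%, 14.3%, 14.3% and 17.3%, also stand behind the counts of the other roles below. The steepest fall among the 11 was that of Amacr, except in PTKO AA 2wk, where Acox2 fell slightly further. Amacr (GRCm38 chromosome 15, 10981756 to 10996626, plus strand) encodes the racemase that turns methyl-branched acyl-CoAs, including bile acid intermediates, into the form that the oxidases accept. Amacr stood at 150, 142 and 189 RPKM in the fl/fl DMSO libraries, at 29.7, 21.4 and 32.9 in AA 2wk and at 22.4, 19.5 and 23.2 in AA 4wk. In PTKO it stood at 143, 173 and 165 RPKM in DMSO, 21.7, 14.9 and 26 in AA 2wk and 17.9, 12 and 15.1 in AA 4wk. Every AA library lay far below every DMSO library, and within each genotype the AA 2wk and AA 4wk libraries overlapped. The log2 fold changes were -2.48 ± 0.20 and -2.82 ± 0.20 (SE) in fl/fl and -2.91 ± 0.20 and -3.34 ± 0.20 in PTKO, with limma adjusted p = 4.9e-07, 1.27e-07, 1.5e-07 and 3.27e-08.

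Decr2, a dienoyl-CoA reductase for unsaturated fatty acids, was the beta-oxidation enzyme that changed least in fl/fl AA 4wk. Its levels were 34, 31.1 and 32.2 RPKM in fl/fl DMSO, 24.4, 24.9 and 32.1 in fl/fl AA 2wk and 29.7, 26.3 and 29.5 in fl/fl AA 4wk. PTKO gave 30.2, 30.8 and 29.4 RPKM in DMSO, 22.3, 20.4 and 37.1 in AA 2wk and 24.8, 18.7 and 21.6 in AA 4wk. The AA 2wk library numbered 3 was the highest of its group in both genotypes and reached into or above the DMSO range, while the PTKO AA 4wk libraries all lay below DMSO. Only the PTKO AA 4wk difference, -0.47 ± 0.17, was called (limma, adjusted p = 0.0227), and it was lost without 1 of 3 libraries (PTKO DMSO replicate 1 or 2, or PTKO AA 4wk replicate 2). The others were -0.26 ± 0.17 in fl/fl AA 2wk, -0.18 ± 0.17 in fl/fl AA 4wk and -0.22 ± 0.17 in PTKO AA 2wk (limma, adjusted p = 0.194, 0.353 and 0.265), and median-of-ratios scaling called all 3 lower. Without both AA 2wk libraries numbered 3, Decr2 was called lower at AA 2wk, at -0.38 in fl/fl and -0.48 in PTKO (limma, adjusted p = 0.00301 and 0.000543).

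The oxidases that open beta-oxidation of branched substrates both fell. In fl/fl, Acox2 went from 46.6 ± 10 RPKM (mean ± SD, n = 3) in DMSO to 14.1 ± 4.9 (AA 2wk) and 8.28 ± 2.87 (AA 4wk), and from 60.6 ± 18 to 6.67 ± 0.419 and 6.04 ± 1.97 in PTKO. Its log2 fold changes were -1.70 and -2.39 in fl/fl and -2.96 and -3.12 in PTKO. Acox3 changed by -1.24, -1.35, -1.34 and -1.31 in the same order, and all 8 of these differences were called. The 2 multifunctional enzymes of the next steps differed in size: Ehhadh, which acts on straight-chain substrates, changed by -2.16 and -2.65 in fl/fl and -2.59 and -3.23 in PTKO, and Hsd17b4, which also takes branched ones, by -0.45, -0.57, -0.44 and -0.61. These were all called as well. Ehhadh stood at 289 ± 6.2 RPKM in fl/fl DMSO and 45.3 ± 3.87 in fl/fl AA 4wk, and Hsd17b4 at 111 ± 12.3 and 74.2 ± 1.96.

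The 3 thiolases that close the cycle also parted. Acaa1b fell from 112 ± 27.3 RPKM in fl/fl DMSO to 32.5 ± 1.85 in fl/fl AA 4wk, a log2 change of -1.72 ± 0.35 (limma, adjusted p = 0.000535), and by -2.19 in PTKO AA 4wk. Acaa1b (GRCm38 chromosome 9, 119148023 to 119157093, minus strand) has a near-identical neighbour, Acaa1a (119339676 to 119350299, plus strand). Acaa1a stood at 45.9 ± 5.37 and 39.5 ± 2.43 RPKM, and its difference of -0.21 ± 0.15 was not called (adjusted p = 0.245). Of the 4 toxin comparisons Acaa1a was called in fl/fl AA 2wk alone (-0.43, adjusted p = 0.0237), a call lost without fl/fl DMSO replicate 1, fl/fl AA 2wk replicate 1 or fl/fl AA 2wk replicate 2. Without both AA 2wk libraries numbered 3, Acaa1a was called lower in all 4, at -0.53 and -0.21 in fl/fl and -0.48 and -0.34 in PTKO (limma, adjusted p = 0.000181, 0.0381, 0.000368 and 0.00177). How reads shared by such copies were assigned is not stated, and the split between them is uncertain. Scp2, whose gene encodes a thiolase and a lipid transfer protein, changed by -0.71, -1.10, -0.84 and -1.47, all called. Pecr, an enoyl-CoA reductase, changed by -1.93, -2.14, -2.19 and -2.93, and Ech1, a dienoyl-CoA isomerase, by -1.04, -1.15, -1.12 and -1.38, again all called. In fl/fl, Ech1 fell from 455 ± 17.8 to 205 ± 12.2 RPKM at AA 4wk, and Pecr from 430 ± 37.8 to 96.9 ± 11.9 RPKM.

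The 2 enzymes of alpha-oxidation, which removes a carbon from phytanic acid, did not move alike. Phyh, the hydroxylase that starts it, stood at 579, 487 and 590 RPKM in fl/fl DMSO, 248, 191 and 358 in AA 2wk and 235, 263 and 281 in AA 4wk. PTKO libraries held 554, 538 and 505 RPKM in DMSO, 194, 179 and 328 in AA 2wk and 187, 164 and 209 in AA 4wk. All AA libraries were below all DMSO libraries, with the AA 2wk library numbered 3 the highest of each AA 2wk group. The log2 changes were -1.09 ± 0.22 and -1.08 ± 0.22 in fl/fl and -1.24 ± 0.22 and -1.51 ± 0.22 in PTKO (limma, adjusted p = 0.000678, 0.000581, 0.000295 and 2.67e-05). Hacl1, the lyase of the next step, stood at 26.1, 17 and 17.2 RPKM in fl/fl DMSO, 12.8, 14.4 and 27 in AA 2wk and 23.5, 17.7 and 18.9 in AA 4wk. Its PTKO values were 24.9, 19.1 and 21.7 RPKM in DMSO, 14.2, 9.41 and 22.7 in AA 2wk and 14.6, 14 and 13.4 in AA 4wk. The fl/fl groups overlapped throughout, while the 3 PTKO AA 4wk libraries lay below PTKO DMSO. No toxin difference of Hacl1 was called: -0.19 ± 0.28 and 0.02 ± 0.28 in fl/fl and -0.55 ± 0.28 and -0.60 ± 0.28 in PTKO, with adjusted p = 0.568, 0.966, 0.102 and 0.0655. Both PTKO differences were called under median-of-ratios scaling and without PTKO AA 2wk replicate 3. Leaving out both AA 2wk libraries numbered 3, Hacl1 was called lower in fl/fl AA 2wk as well (-0.51, limma adjusted p = 0.0302), while fl/fl AA 4wk stayed at 0.02.

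The enzymes that release or transfer acyl groups were called lower in 3 of 4 genes in fl/fl AA 2wk, fl/fl AA 4wk and PTKO AA 2wk and in 4 of 4 in PTKO AA 4wk. Crot, which moves medium-chain acyl groups to carnitine for export, stood at 151, 168 and 195 RPKM in fl/fl DMSO, 80.8, 52.7 and 68.9 in AA 2wk and 49.2, 50.3 and 52.2 in AA 4wk. In PTKO it stood at 246, 224 and 244 RPKM in DMSO, 54.1, 46.3 and 57.7 in AA 2wk and 56.9, 41.2 and 43.5 in AA 4wk. The PTKO DMSO libraries were all above the fl/fl DMSO libraries, and all AA libraries of both genotypes lay well below both. The log2 changes were -1.35 ± 0.15 and -1.73 ± 0.15 in fl/fl and -2.16 ± 0.15 and -2.32 ± 0.15 in PTKO (limma, adjusted p = 6.28e-06, 4.93e-07, 1.52e-07 and 5.35e-08). The thioesterase Acot8 changed least of this role in fl/fl AA 4wk. It stood at 17.7, 18.5 and 17.6 RPKM in fl/fl DMSO, 13.5, 13.9 and 15.6 in AA 2wk and 14.4, 15.1 and 14.9 in AA 4wk, and in PTKO at 18.7, 17 and 17.5 in DMSO, 11.6, 12.5 and 13.7 in AA 2wk and 11.5, 11.2 and 16.4 in AA 4wk. The AA and DMSO libraries of a genotype did not overlap, although PTKO AA 4wk replicate 3 came close to DMSO. Acot8 was called in fl/fl AA 2wk (-0.31 ± 0.11, adjusted p = 0.0264), PTKO AA 2wk (-0.47) and PTKO AA 4wk (-0.44). The fl/fl AA 4wk difference, -0.26 ± 0.11, was not (adjusted p = 0.0533), but was called without both AA 2wk libraries numbered 3 (adjusted p = 0.0416), and the fl/fl AA 2wk call was lost without either of 2 DMSO or 2 AA 2wk libraries (replicates 1 and 2 of each group).

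Acot4, a thioesterase for dicarboxylic and medium-chain acyl-CoAs, changed by -0.62 and -1.09 in fl/fl and -0.88 and -1.60 in PTKO, all called. The fl/fl AA 2wk call was lost when only those groups were fitted, and without fl/fl DMSO replicate 1 or fl/fl AA 2wk replicate 1 or 2. Acnat2, an acyltransferase that joins fatty acids to amino acids, was the member whose 2 times differed most. It was called lower at AA 4wk in both genotypes (-1.46 ± 0.29 in fl/fl and -1.09 ± 0.29 in PTKO, adjusted p = 0.00048 and 0.00348) and at AA 2wk in neither (-0.43 ± 0.29 in fl/fl and 0.31 ± 0.29 in PTKO, adjusted p = 0.208 and 0.366). Both genes stand in clusters of similar copies (Acot3, Acot5 and Acot6; Acnat1), so reads may be split between copies.

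Catalase and the 3 oxidases of amino and hydroxy acids were called lower in all 4 toxin comparisons. In fl/fl, Cat fell from 765 ± 35 RPKM in DMSO to 334 ± 128 (AA 2wk) and 247 ± 15.5 (AA 4wk), and from 748 ± 29.8 to 286 ± 99.9 and 183 ± 30.5 in PTKO. Its log2 changes were -1.26, -1.63, -1.43 and -2.04. Hao2, an oxidase of long-chain hydroxy acids, stood at 179, 207 and 160 RPKM in fl/fl DMSO, 64.5, 60 and 115 in AA 2wk and 42.6, 35.5 and 50.3 in AA 4wk, and in PTKO at 206, 196 and 168 in DMSO, 48.7, 31.2 and 56.3 in AA 2wk and 39.5, 28.3 and 28.1 in AA 4wk. DMSO and AA libraries did not overlap, and all 3 PTKO AA 2wk libraries lay below the fl/fl AA 2wk libraries. The log2 changes were -1.23 ± 0.24 and -2.07 ± 0.24 in fl/fl and -2.08 ± 0.24 and -2.55 ± 0.24 in PTKO (limma, adjusted p = 0.000616, 6.85e-06, 1.12e-05 and 8.76e-07).

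Dao, the D-amino acid oxidase, stood at 217, 177 and 221 RPKM in fl/fl DMSO, 67.6, 78.6 and 115 in AA 2wk and 68, 66.8 and 84.9 in AA 4wk. In PTKO it stood at 213, 229 and 213 RPKM in DMSO, 84, 83.1 and 168 in AA 2wk and 65.2, 45.8 and 53.4 in AA 4wk. No AA library reached the DMSO range, although PTKO AA 2wk replicate 3 lay nearer to DMSO than to its own group. Dao changed by -1.26 ± 0.24 and -1.47 ± 0.24 in fl/fl and -1.04 ± 0.24 and -1.99 ± 0.24 in PTKO (limma, adjusted p = 0.000505, 0.000107, 0.00212 and 6.12e-06). Pipox, which oxidizes sarcosine and pipecolic acid, fell from 381 ± 35.6 RPKM to 116 ± 7.82 in fl/fl AA 4wk and from 332 ± 26.9 to 107 ± 11.2 in PTKO AA 4wk.

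**Figure D3:**
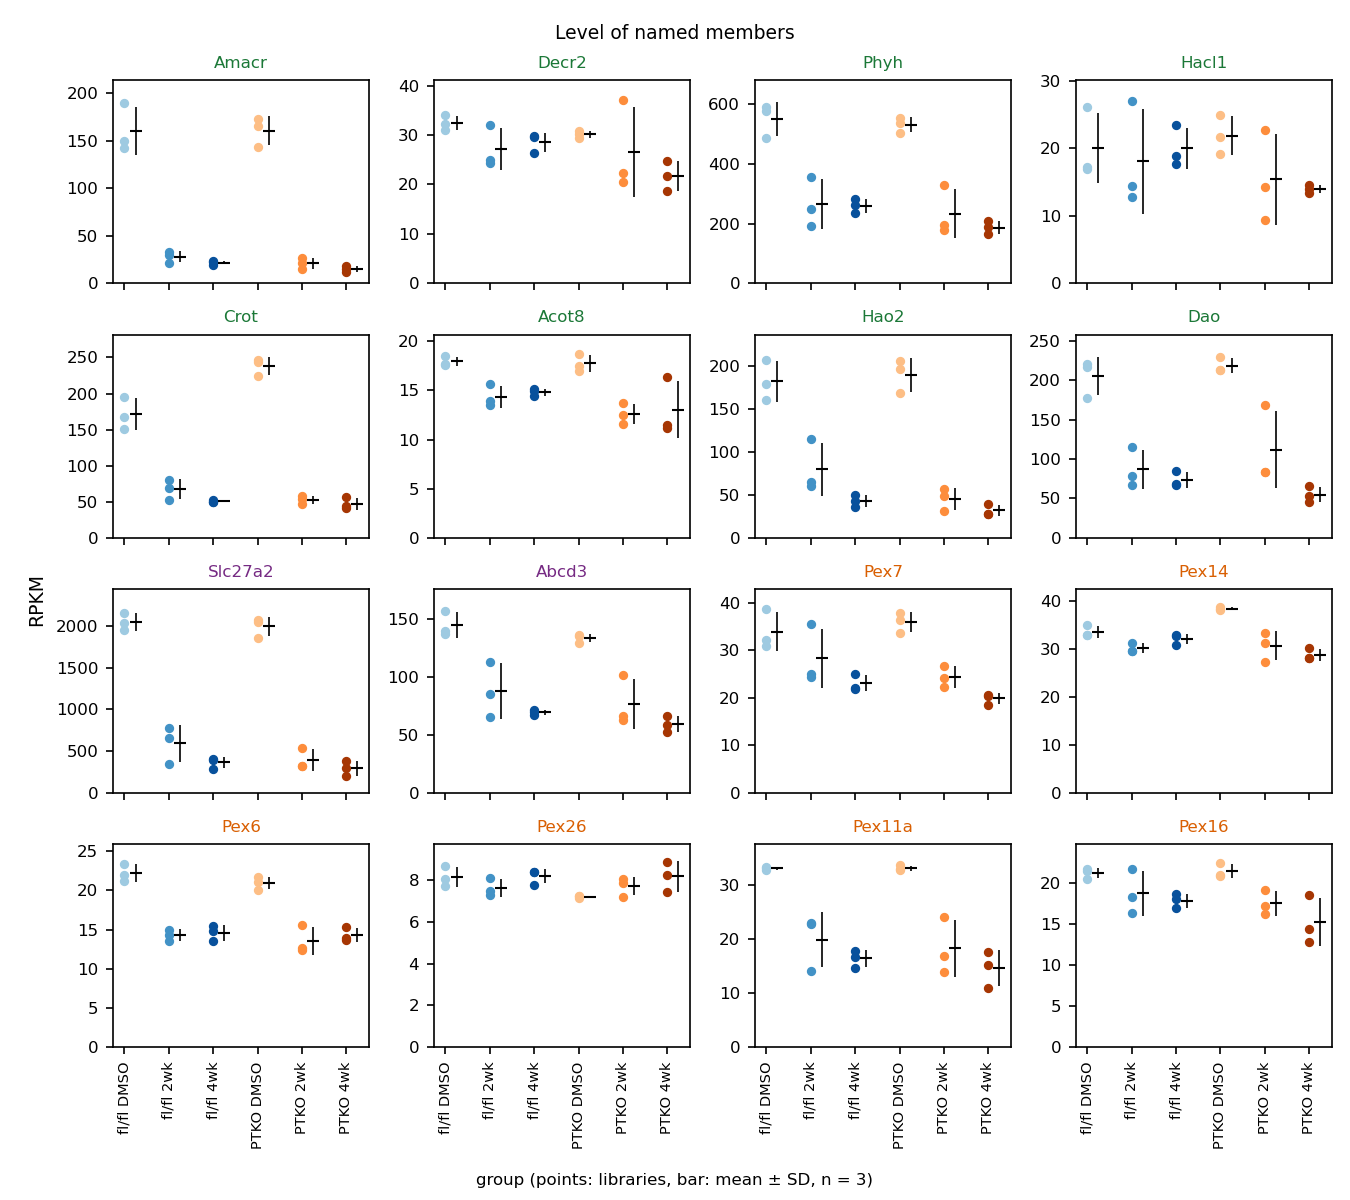
RPKM of the 16 members named by rule (per role, the lowest and the highest log2 fold change in fl/fl AA 4wk) in the 6 groups; points are libraries and the bar is the mean ± SD (n = 3), on axes that start at 0. Enzymes and transporters such as Amacr, Crot and Slc27a2 drop after aristolochic acid in both genotypes, while Pex26 stays between 7.12 and 8.87 RPKM in all 18 libraries.

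The 4 tested membrane proteins were called lower in all 4 toxin comparisons. Slc27a2 stood at 1950, 2040 and 2160 RPKM in fl/fl DMSO, 658, 345 and 773 in AA 2wk and 396, 284 and 404 in AA 4wk. The PTKO libraries held 2070, 1860 and 2050 RPKM in DMSO, 315, 318 and 537 in AA 2wk and 383, 204 and 293 in AA 4wk. Every AA library was below 800 and every DMSO library above 1800, so the groups lay far apart. The log2 changes were -1.87 ± 0.29 and -2.52 ± 0.29 in fl/fl and -2.40 ± 0.29 and -2.81 ± 0.29 in PTKO (limma, adjusted p = 9.17e-05, 5.08e-06, 1.33e-05 and 1.49e-06). Abcd3, an ABC transporter for branched-chain and bile acid acyl-CoAs, was the least changed of the 4. It stood at 139, 137 and 157 RPKM in fl/fl DMSO, 85.2, 65.2 and 113 in AA 2wk and 71.2, 66.6 and 69.4 in AA 4wk, and in PTKO at 136, 135 and 129 in DMSO, 62.2, 65.9 and 101 in AA 2wk and 66.2, 52 and 58.5 in AA 4wk. No AA library reached the DMSO range, and the AA 2wk libraries were more scattered than those of AA 4wk. Abcd3 changed by -0.74 ± 0.18 and -1.05 ± 0.18 in fl/fl and -0.83 ± 0.18 and -1.17 ± 0.18 in PTKO (adjusted p = 0.00261, 0.000156, 0.00132 and 4.45e-05). The channel protein Pxmp2 changed by -1.57, -1.89, -1.37 and -1.55, and Pxmp4 by -1.12, -1.20, -1.29 and -1.37.

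Abcd2 was not tested, because it reached 1 RPKM in 1 library only. Its values were 0.04, 0.0415 and 0.0342 RPKM in fl/fl DMSO, 0.2, 0.388 and 0.101 in AA 2wk and 0.599, 0.541 and 0.513 in AA 4wk. In PTKO they were 0.0247, 0.044 and 0.0505 RPKM in DMSO, 0.393, 0.364 and 0.116 in AA 2wk and 0.72, 1.44 and 0.838 in AA 4wk. These rest on 3 to 4 reads per DMSO library and 7 to 105 reads per AA library, and every AA library lay above every DMSO library of its genotype, opposite to the members called lower. With no filter on low values, Abcd2 was tested too and was the 1 member called higher, in fl/fl AA 4wk and in both PTKO comparisons. Markers of macrophages moved the same way: all 9 tested were called higher in each toxin comparison, and their summed level was 70.9 to 114 RPKM in fl/fl DMSO and 2156 to 3269 in fl/fl AA 4wk. Between 45.9% and 55% of all tested genes were called higher in these comparisons. The part of macrophages in the Abcd2 values was not tested.

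Of the 4 Pex genes for import receptors and docking (Pex5, Pex7, Pex13 and Pex14), 2 were called lower in fl/fl AA 2wk, 3 in fl/fl AA 4wk and 4 in each PTKO comparison. Pex7, the receptor for enzymes with an amino-terminal signal such as Phyh, stood at 30.8, 32.2 and 38.6 RPKM in fl/fl DMSO, 24.9, 24.3 and 35.5 in AA 2wk and 22.1, 21.9 and 24.9 in AA 4wk. In PTKO it stood at 36.3, 33.6 and 37.9 RPKM in DMSO, 24.1, 22.2 and 26.7 in AA 2wk and 20.6, 18.5 and 20.3 in AA 4wk. Only fl/fl AA 2wk overlapped its DMSO group, through the library numbered 3. The log2 changes were -0.27 ± 0.13 (adjusted p = 0.0758, not called) and -0.54 ± 0.13 in fl/fl and -0.55 ± 0.13 and -0.83 ± 0.13 in PTKO (limma, adjusted p = 0.00183, 0.00205 and 4.13e-05). Without fl/fl AA 2wk replicate 3 the fl/fl AA 2wk difference was -0.44 and was called.

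Pex14, the docking protein of the membrane, stood at 35, 32.8 and 32.9 RPKM in fl/fl DMSO, 29.5, 29.5 and 31.3 in AA 2wk and 32.8, 30.9 and 32.6 in AA 4wk, and in PTKO at 38.7, 38.4 and 38.1 in DMSO, 27.3, 31.3 and 33.3 in AA 2wk and 28, 28 and 30.1 in AA 4wk. The PTKO DMSO libraries were the highest of all 18 and overlapped no other group. Pex14 was called lower in PTKO (-0.32 ± 0.07 and -0.41 ± 0.07, limma adjusted p = 0.00146 and 0.000133) and not in fl/fl (-0.15 ± 0.07 and -0.06 ± 0.07, adjusted p = 0.0725 and 0.453). The difference between the genotypes in that effect was not called at either time (interaction -0.17 ± 0.10 and -0.35 ± 0.10, adjusted p = 0.938 and 0.934), and median-of-ratios scaling called the fl/fl effects too. Pex14 was called lower in fl/fl AA 2wk without both AA 2wk libraries numbered 3 (-0.18, limma adjusted p = 0.0314). Pex5, the main import receptor, changed by -0.41, -0.46, -0.51 and -0.69 and its docking partner Pex13 by -0.34, -0.47, -0.24 and -0.35, all called. The Pex5 call in fl/fl AA 2wk was lost without fl/fl DMSO replicate 1 or fl/fl AA 2wk replicate 1 or 2. That of Pex13 in PTKO AA 2wk was lost without replicate 1 or 3 of either PTKO DMSO or PTKO AA 2wk.

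The 4 Pex genes that recycle the receptors (Pex2, Pex6, Pex10 and Pex26) held the steadiest member. Pex6, an ATPase that pulls Pex5 out of the membrane, stood at 23.4, 22 and 21.2 RPKM in fl/fl DMSO, 15, 14.3 and 13.5 in AA 2wk and 13.5, 15.5 and 14.8 in AA 4wk. Its PTKO values were 21.7, 21 and 20.1 RPKM in DMSO, 12.4, 12.7 and 15.6 in AA 2wk and 13.9, 13.7 and 15.3 in AA 4wk. All AA libraries lay below all DMSO libraries, with a narrow spread in every group. The changes were -0.60 ± 0.09 and -0.57 ± 0.09 in fl/fl and -0.60 ± 0.09 and -0.52 ± 0.09 in PTKO (limma, adjusted p = 5.32e-05, 5.05e-05, 5.93e-05 and 8.87e-05).

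Pex26, which anchors Pex6 at the membrane, stood at 7.73, 8.66 and 8.04 RPKM in fl/fl DMSO, 7.49, 7.27 and 8.08 in AA 2wk and 7.78, 8.37 and 8.39 in AA 4wk. PTKO libraries gave 7.12, 7.21 and 7.22 RPKM in DMSO, 7.2, 7.87 and 8.05 in AA 2wk and 7.4, 8.24 and 8.87 in AA 4wk. The fl/fl groups overlapped, and the 3 PTKO AA 4wk libraries were all above PTKO DMSO. None of its differences was called: -0.09 ± 0.08 and 0.01 ± 0.08 in fl/fl and 0.09 ± 0.08 and 0.16 ± 0.08 in PTKO, with adjusted p = 0.363, 0.945, 0.352 and 0.0842. The direction rests on scaling, since quantile normalization turned the fl/fl AA 4wk, PTKO AA 2wk and PTKO AA 4wk values of Pex26 to -0.47, -0.30 and -0.39 and called them lower. Median-of-ratios scaling did so for fl/fl AA 4wk (-0.36) and PTKO AA 4wk (-0.24), whereas without PTKO AA 4wk replicate 1 the Pex26 difference there was 0.22 and was called higher. Of the 2 ring-finger peroxins, Pex2 changed by -0.28, -0.34, -0.36 and -0.41, all called, and Pex10 by -0.34 (not called), -0.39, -0.51 and -0.47. Without both AA 2wk libraries numbered 3, Pex10 was called lower in fl/fl AA 2wk (-0.45, limma adjusted p = 0.00584) and Pex2 was not called in PTKO AA 2wk (-0.27, adjusted p = 0.0507). Without fl/fl DMSO replicate 3 Pex2 lost both calls in fl/fl, and without PTKO DMSO replicate 3 that in PTKO AA 2wk. The fl/fl AA 2wk call of Pex2 was also lost without any 1 of the AA 2wk libraries, and the fl/fl AA 4wk call of Pex10 without replicate 1 or 2 of either group.

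Among the 4 Pex genes for membrane assembly and division, Pex11a fell furthest. Pex11a (GRCm38 chromosome 7, 79735957 to 79743131, minus strand), which shapes and divides peroxisomes and is itself a PPAR-alpha target, stood at 33.2, 32.7 and 33.1 RPKM in fl/fl DMSO, 22.7, 14 and 22.9 in AA 2wk and 16.7, 17.8 and 14.7 in AA 4wk. In PTKO it stood at 32.7, 32.9 and 33.6 RPKM in DMSO, 16.8, 13.9 and 24 in AA 2wk and 17.6, 11 and 15.2 in AA 4wk. The 6 DMSO libraries lay within 1 RPKM of each other, and all AA libraries were below them. It changed by -0.74 ± 0.20 and -0.97 ± 0.20 in fl/fl and -0.86 ± 0.20 and -1.15 ± 0.20 in PTKO (limma, adjusted p = 0.00514, 0.000625, 0.00204 and 0.000122). No other Pex gene of the set had a change beyond -0.83 (Pex7 in PTKO AA 4wk).

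Pex16, which recruits membrane proteins, was the least changed of that role in fl/fl AA 4wk. Its levels were 21.7, 21.4 and 20.5 RPKM in fl/fl DMSO, 18.3, 16.3 and 21.7 in AA 2wk and 18, 16.9 and 18.6 in AA 4wk, and 22.4, 20.9 and 21 in DMSO, 16.2, 17.2 and 19.1 in AA 2wk and 14.4, 12.8 and 18.5 in AA 4wk of PTKO. Only fl/fl AA 2wk replicate 3 reached the DMSO range. The PTKO differences, -0.28 ± 0.12 and -0.48 ± 0.12, were called (limma, adjusted p = 0.0483 and 0.00177), the former only narrowly, and it was lost under 15 of the other settings. The fl/fl differences, -0.18 ± 0.12 and -0.24 ± 0.12, were not called (adjusted p = 0.193 and 0.0863). Both fl/fl differences were called without both AA 2wk libraries numbered 3 (-0.28 and -0.24, limma adjusted p = 0.0381 and 0.0491). Pex3 and Pex19, the receptor pair for membrane proteins, changed by -0.20 (not called), -0.27, -0.40 and -0.53 and by -0.26, -0.27, -0.35 and -0.43. Pex3 was called lower in fl/fl AA 2wk without both AA 2wk libraries numbered 3 (-0.32, limma adjusted p = 0.00144). The fl/fl AA 4wk call of Pex3 was lost without fl/fl DMSO replicate 2 or fl/fl AA 4wk replicate 1.

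In tissue RNA, fewer cells of a type and less RNA per cell cannot be told apart. Markers of the proximal tubule were lower in the same libraries: 13 of 18 were called lower in fl/fl AA 2wk, 14 in fl/fl AA 4wk, 12 in PTKO AA 2wk and 17 in PTKO AA 4wk, with medians of -1.54, -1.83, -1.33 and -2.01. Their summed level was 10920 to 12190 RPKM in the PTKO DMSO libraries, 2700 to 5714 in fl/fl AA 2wk, 2499 to 6203 in PTKO AA 2wk, 3174 to 3782 in fl/fl AA 4wk and 1530 to 2543 in PTKO AA 4wk. Tubule injury markers were called higher in 10 of 10 genes in each of the 4 comparisons. Macrophage and T cell markers were called higher in 9 of 9 and 6 of 6 tested genes each time, and fibroblast markers in 6, 7, 1 and 7 of 8. In the same order, 12.2%, 14.3%, 14.3% and 17.3% of all tested genes were called lower and 50.4%, 51.9%, 45.9% and 55% higher. The part of these cell type shifts in the members' changes was not tested. Of the 4 hepatocyte markers, which would mark another peroxisome-rich cell, the summed level of the 3 tested was 76.6 to 114 RPKM in fl/fl DMSO and 9.05 to 15.1 in fl/fl AA 4wk, where Apoa1 was at 0 in 1 library.

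**Figure D4:**
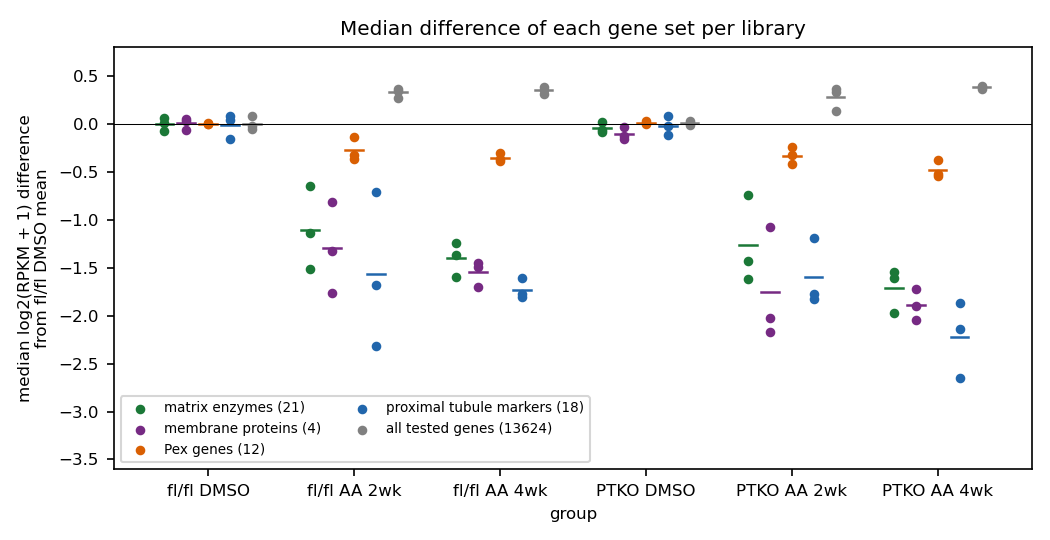
Median difference from the fl/fl DMSO mean, on the log2(RPKM + 1) scale, of each gene set in each library (points; short line, mean of 3). In the AA groups the matrix enzymes (green) lie at -0.65 or lower and the Pex genes (orange) at -0.55 or higher, with the 18 proximal tubule markers (blue) between -2.65 and -0.71 and the median of all tested genes (grey) above 0.

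From AA 2wk to AA 4wk, the remodeling period, little changed that could be called. In fl/fl, 0 of 37 members were called (background 0.125% in either direction), and 7 had an unadjusted p under 0.05, against 12.3% of all tested genes. Every AA 4wk library lay below every AA 2wk library for 5 members, against 10.4% of all genes. Voom on the recovered reads also called 0, and sample quality weights called 15, with 3575 of all tested genes called. In PTKO 3 members were called lower and 0 higher, against 1.56% of tested genes called lower and 2.6% called higher. These were Scp2 (-0.63 ± 0.14, limma adjusted p = 0.026), Acnat2 (-1.39 ± 0.29, adjusted p = 0.0226) and Dao (-0.95 ± 0.24, adjusted p = 0.0439). There 10 had an unadjusted p under 0.05 (26.9% of all genes), and in 7 every AA 4wk library was lower (8.52% of all genes). Scp2 and Acnat2 were named here after their values were seen. Acnat2 stood at 33.2, 33.9 and 50.5 RPKM in PTKO AA 2wk and 21.2, 10.3 and 12.5 in PTKO AA 4wk, and Scp2 at 68, 62.4 and 79.6 and 47.9, 40.6 and 46, so neither gene's groups overlapped. In fl/fl Acnat2 went from 23.9, 28.7 and 37.7 to 15.1, 10.8 and 16.7 RPKM, also without overlap (-1.03 ± 0.29, adjusted p = 0.177, not called).

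The PTKO calls depended on which libraries entered the fit. Without PTKO AA 2wk replicate 3 alone no member was called, and without fl/fl AA 2wk replicate 3 alone there were 5. Without both, the same 3 were called, with smaller differences (Scp2 -0.53, Acnat2 -1.20 and Dao -0.62; limma, adjusted p = 0.0127, 0.0408 and 0.0274). A fit to these groups alone called 0. Leaving out PTKO AA 4wk replicate 2 or replicate 3 ended all 3 calls as well, and the call of Dao was lost under 13 of the other settings. With the replicate number as a block, Acot4 was called as well (-0.71 ± 0.22, adjusted p = 0.0402, and 0.0715 without the block). Over all 37 members the median change was -0.13 in fl/fl and -0.20 in PTKO, beside 0.01 and 0.10 for all genes. Over the enzymes it was -0.34 and -0.43, and over the Pex genes -0.05 and -0.10. The 18 proximal tubule markers had medians of -0.16 and -0.87, and their part in these changes was not tested. Leaving out both AA 2wk libraries numbered 3 brought the enzyme medians to -0.03 and -0.22.

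Between PTKO and fl/fl no member was called at any treatment. In DMSO 0 of 37 members were called (background 0.0367%), and 3 had an unadjusted p under 0.05, against 4.94% of all genes. These were Crot (0.48 ± 0.15, adjusted p = 0.698), Pxmp2 (-0.78 ± 0.29, adjusted p = 0.861) and Pex14 (0.19 ± 0.07, adjusted p = 0.861). Of all members, 5 were lower and 3 higher in every PTKO library than in every fl/fl library, against 5.77% and 7.88% of all genes. Pxmp2, for example, stood at 43.5, 50.2 and 45.7 RPKM in fl/fl DMSO and 25.5, 27.5 and 26.6 in PTKO DMSO. Pxmp2 was called when only these 2 groups were fitted, and without both AA 2wk libraries numbered 3. The median over the members was -0.02 and over all genes 0.01. Voom on the recovered reads called 0 members as well.

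In AA 2wk 0 members were called between genotypes (background 0.00734%), with 3 at an unadjusted p under 0.05 (6.7% of all genes). These were Acox2 (-0.92 ± 0.30, adjusted p = 0.507), Hao2 (-0.78 ± 0.24, adjusted p = 0.498) and Crot (-0.33 ± 0.15, adjusted p = 0.733). Acox2 stood at 14.8, 8.85 and 18.6 RPKM in fl/fl and 6.83, 6.2 and 6.99 in PTKO, so all 3 PTKO libraries were lower, as was the case for 2 members in all (4.74% of all genes). Voom called 0 here too. With sample quality weights, which let libraries count by how well they fit their group, 15 members were called lower in PTKO, against 7.74% of all genes called lower with these weights.

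In AA 4wk the members leaned one way without any call. Of the 37 members, 36 had a log2 difference below 0, against 42.1% of all genes, and in 19 every PTKO library was lower than every fl/fl library, against 9.73% of all genes. By class these were 13 of 21 enzymes, 2 of 4 membrane proteins and 4 of 12 Pex genes. Such counts run over genes that share the same libraries and are not independent replicates. The number called was 0 (background 0.00734%), by limma and by voom, 7 had an unadjusted p under 0.05 (6.04% of all genes), and the lowest adjusted p was 0.812. Among these 7, the largest differences were those of Acaa1b (-0.88 ± 0.35) and Pecr (-0.72 ± 0.29). Pecr stood at 83.6, 101 and 107 RPKM in fl/fl and 75.5, 40 and 64.3 in PTKO, without overlap. Amacr followed among the 7 at -0.51 ± 0.20, and Ehhadh, not among them, stood at -0.63 ± 0.38. The median was -0.23 over the members and 0.03 over all genes.

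Proximal tubule markers were also lower in PTKO. Their median difference from fl/fl DMSO was -2.65 to -1.87 in PTKO AA 4wk and -1.81 to -1.61 in fl/fl AA 4wk. Markers of the thick ascending limb (-0.03 to 0.56 against 0.70 to 1.07) and intercalated cells (-0.43 to -0.24 against 0.14 to 0.51) were lower too. Those of macrophages were higher (4.70 to 5.08 against 4.14 to 4.56), as were those of T cells and tubule injury. The medians of the other marker lists overlapped between the genotypes. By summed RPKM, 3 of those lists did not overlap at AA 4wk. Fibroblast markers were higher in PTKO (536 to 574 against 298 to 434), as were hepatocyte markers (18.5 to 25.2 against 9.05 to 15.1). Markers of the distal convoluted tubule were lower (191 to 277 against 315 to 356). The part of these shifts in the lower member levels was not tested. Sample quality weights called 7 members lower (3.35% of all genes), and leaving out both AA 2wk libraries numbered 3 called 2 (Scp2 and Decr2, with 1.15% of all genes called lower). No alternative called a member higher in PTKO.

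**Figure D5:**
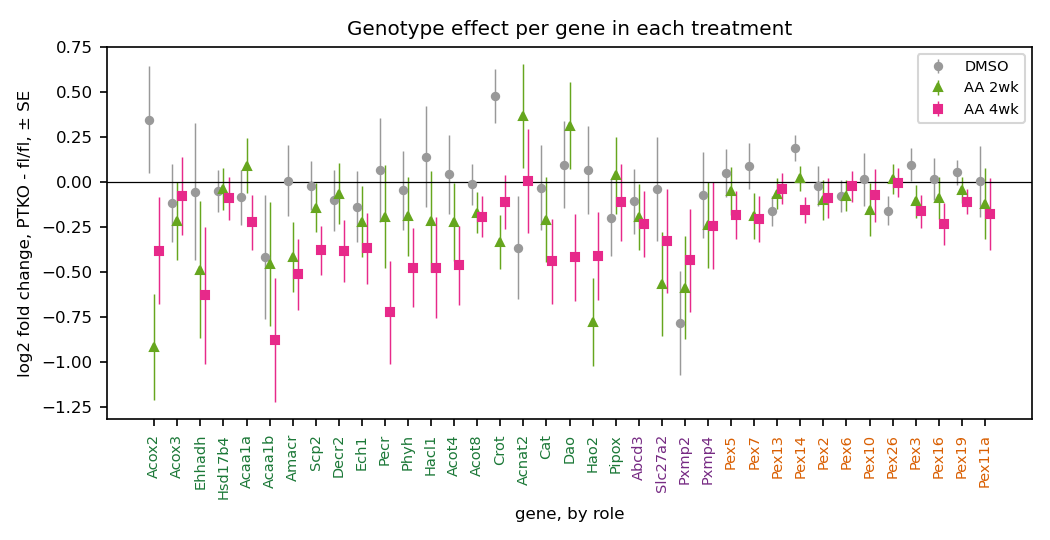
Log2 difference PTKO minus fl/fl, ± SE, for each tested gene in DMSO (grey circles), AA 2wk (green triangles) and AA 4wk (pink squares), with genes ordered by role. No difference is called; the AA 4wk points lie below 0 for 36 of 37 genes, and the DMSO points on both sides.

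Whether the toxin effect itself differed between genotypes was tested as an interaction. At AA 2wk 0 members were called (background 0.0147%), and 3 had an unadjusted p under 0.05 (5.36% of all genes): Crot (-0.81 ± 0.21, adjusted p = 0.67), Acox2 (-1.26 ± 0.42, adjusted p = 0.842) and Hao2 (-0.84 ± 0.35, adjusted p = 0.881). At AA 4wk 0 were called (background 0.00734%), and 2 had an unadjusted p under 0.05 (4.66% of all genes): Crot (-0.59 ± 0.21, adjusted p = 0.934) and Pex14 (-0.35 ± 0.10, adjusted p = 0.934). Voom called 0 in both. Crot stood at 238 ± 12 RPKM in PTKO DMSO and 171 ± 22.5 in fl/fl DMSO, and at 47.2 ± 8.44 and 50.6 ± 1.57 RPKM at AA 4wk. The median interaction over the members was -0.12 for AA 2wk and -0.25 for AA 4wk, beside -0.06 and 0.02 over all genes.

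Other peroxisomal genes were taken from lists drawn up by function. Of 30 tested enzymes and membrane proteins outside the set, 17 were called lower in fl/fl AA 2wk, 20 in fl/fl AA 4wk, 19 in PTKO AA 2wk and 24 in PTKO AA 4wk, and 1, 2, 1 and 2 were called higher. In that order, 12.2%, 14.3%, 14.3% and 17.3% of all tested genes were called lower and 50.4%, 51.9%, 45.9% and 55% higher. The polyamine oxidase Paox was among the listed genes called higher, at AA 4wk (0.59 in fl/fl and 0.72 in PTKO). The median of all tested genes there was 0.35 in fl/fl and 0.40 in PTKO. Paox was named after its values were seen.

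Of 7 tested further peroxins and division factors, 3, 4, 3 and 4 were called lower (12.2%, 14.3%, 14.3% and 17.3% of all tested genes). In each comparison 1 was called higher (50.4%, 51.9%, 45.9% and 55% of all tested genes). The one called higher was Dnm1l, a division factor shared with mitochondria (0.41, 0.33, 0.39 and 0.49). Those changes were close to the median of all tested genes (0.33, 0.35, 0.29 and 0.40). Pex11g, a further member of the Pex11 family, was called lower in all 4 comparisons (-0.64, -0.75, -0.92 and -0.87). These names were chosen after their values were seen.

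Among 10 tested regulators of peroxisomal or proximal tubule genes, 7, 7, 6 and 7 were called lower (12.2%, 14.3%, 14.3% and 17.3% of all tested genes). The numbers called higher were 1, 2, 0 and 1 (50.4%, 51.9%, 45.9% and 55% of all tested genes). Ppara, which encodes PPAR-alpha, stood at 30.4, 30 and 31.3 RPKM in fl/fl DMSO, 12.4, 11 and 33.1 in AA 2wk and 10.6, 8.88 and 10.5 in AA 4wk. In PTKO it stood at 19, 21.7 and 24.3 RPKM in DMSO, 13.6, 13.9 and 22.1 in AA 2wk and 12, 9.21 and 9.05 in AA 4wk. The fl/fl AA 2wk library numbered 3 was as high as DMSO, whereas the AA 4wk libraries of both genotypes were all well below. Ppara changed by -0.84 ± 0.29 and -1.53 ± 0.29 in fl/fl and -0.40 ± 0.29 and -1.04 ± 0.29 in PTKO, with limma adjusted p = 0.0211, 0.000367, 0.251 and 0.00516, so the PTKO AA 2wk difference was not called. Ppard and Pparg, the other PPAR genes, were the ones called higher: Ppard in fl/fl (0.59 and 0.62), and Pparg at AA 4wk in both genotypes (0.80 and 0.96). The median of all tested genes was 0.33 (AA 2wk) and 0.35 (AA 4wk) in fl/fl and 0.40 in PTKO AA 4wk. Ppard and Pparg were likewise named after their values were seen.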

How the data were processed

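RNA of kidney cortex was measured in 18 libraries, 6 groups of 3, and the deposited matrix holds RPKM values for 24062 genes, per the file headers. Per the submitters' processing notes, bcl2fastq 2.19 and kallisto were used with mm10; the step from estimated counts to RPKM is not given in the sources used here. Per the labels' protocols, RNA was DNase-treated and made into stranded total RNA libraries. Groups were taken from the labels. Whole reads were recovered from the RPKM steps for 17578 of 17579 genes above 0 in at least 6 libraries (100.0% of their values within 0.02 reads of a whole number), which gave the depths and a voom alternative.

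Values were tested as log2(RPKM + 1) with limma 3.58.1 in R 4.3.3 (6 group means, intensity trend, robust moderation, two-sided, Benjamini-Hochberg adjustment over the 13624 genes that reached 1 RPKM in 3 or more libraries, call at adjusted p under 0.05), checked on simulated data, in 11 comparisons with 29 alternative settings. The members and gene lists were chosen with earlier results of these data known. Per role, the members with the lowest and highest fold change in fl/fl AA 4wk were named, with Ppara and Klf15; others are said to be chosen later. Some genes of the lists are counted but not reported by name here. Same-numbered libraries deviated together, with a correlation above 0.1 in all 3 pairs, only for PTKO AA 2wk with fl/fl AA 2wk (0.431 to 0.663) and PTKO AA 4wk with PTKO AA 2wk (0.101 to 0.243); the pairing comes from the numbers in the labels. With 3 against 3 libraries, an exact permutation test of 1 gene cannot go below p = 0.1. Promoter sequences are RefSeq's for GRCm38.p6, and 32 of 38 members matched by symbol. No protein sequences were used here.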

Additional observations from a re-analysis of the deposited data

Results flagged for a closer look

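Hacl1, the alpha-oxidation lyase, was flagged because, between AA 2wk and AA 4wk, all 3 fl/fl AA 4wk libraries lay above the mean of fl/fl AA 2wk and all 3 PTKO AA 4wk libraries below the mean of PTKO AA 2wk, both taken on the log2(RPKM + 1) scale. Its log2 difference was 0.206 in fl/fl and -0.053 in PTKO, and the difference between the genotypes was not tested. The docking peroxin Pex14 was flagged in the same way, with 0.091 in fl/fl and -0.085 in PTKO, also not tested. None of these 4 values was called on its own.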

How the results depend on the processing

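The count of members called after the toxin, in either direction, stayed within 1.5 times that reported under all 29 alternatives. Leaving out 1 library at a time it ran from 23 to 31 (fl/fl AA 2wk), 28 to 32 (fl/fl AA 4wk), 29 to 34 (PTKO AA 2wk) and 33 to 36 (PTKO AA 4wk). Voom on the recovered reads called 8693, 9254, 8459 and 9730 of all genes in these comparisons. The enzyme median minus the Pex median ran from -1.02 to -0.811, -1.195 to -0.954, -0.969 to -0.577 and -1.256 to -0.98 in the same order and stayed below 0; quantile normalization gave -0.452 (fl/fl AA 2wk), -0.697 (fl/fl AA 4wk) and -0.532 (PTKO AA 4wk). Sample quality weights called 15 members from AA 2wk to AA 4wk in fl/fl (4 higher, 11 lower), and 15 and 7 lower between genotypes at AA 2wk and AA 4wk. Fitting only the compared groups called 0 members from AA 2wk to AA 4wk in PTKO and 1 in DMSO between genotypes. Without both AA 2wk libraries numbered 3, 1 was called between genotypes in DMSO and 2 at AA 4wk. Without 1 library, the PTKO count from AA 2wk to AA 4wk was 0 to 5, and the other comparisons of times or genotypes stayed at 0.

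The replicate block gave 30, 31, 32 and 36 members lower after the toxin and 4 from AA 2wk to AA 4wk in PTKO, where 1570 of all genes were called against 567, and 0 in the other comparisons. Of the values of the 16 named members under these settings, 1770 kept their side of the threshold. That count includes any turn of sign with no call in either fit. A further 59 became calls and 22 lost the call. The remaining 5 turned sign and were called under the alternative. These were Pex26 under median-of-ratios scaling (-0.363 in fl/fl AA 4wk, -0.237 in PTKO AA 4wk) and quantile normalization (-0.468 in fl/fl AA 4wk, -0.296 in PTKO AA 2wk, -0.393 in PTKO AA 4wk); both scalings lower the median of all genes to near 0. The cause of the other changes was not tested.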
